A study of Mus musculus with 9 samples.

Results

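The comparison set 2 betaTC3 libraries against 2 libraries of alphaTC1 cells carrying a knockdown of Smndc1, and asked which beta and alpha cell genes still differed in chromatin signal between the lines once the knockdown was in place. These are 4 of the 9 samples of the series and 4 of its 6 libraries labelled H3K9me3, and they were chosen by their labels alone. AlphaTC1 is a mouse pancreatic alpha cell line and betaTC3 a mouse pancreatic beta cell line; each is a single established line, so the cell type and every other difference between these lines cannot be told apart. The knockdown libraries came from alphaTC1 cells taken 5 days after they received an shRNA against Smndc1 by transduction. A further pair of libraries came from alphaTC1 cells given an empty vector for 5 days, and these serve as the control for the knockdown. The betaTC3 cells were untreated, with neither vector nor shRNA, so transduction is itself a difference between the groups compared. The labels do not say whether the libraries numbered 1 and 2 of a group came from separate cultures, so the p-values measure the spread between libraries, which may be technical.

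Beta cells make insulin and alpha cells make glucagon. Both arise from one endocrine progenitor, and a small set of transcription factors keeps each identity apart: Pdx1, Mafa, Nkx6-1 and Mnx1 on the beta side, and Irx1, Irx2 and Pou3f4 among those on the alpha side. Smndc1 encodes a Tudor-domain protein of the spliceosome. Trimethylation of histone H3 at lysine 9 is known as a mark of silent heterochromatin, read by HP1 proteins, and is not usually found over the starts of genes that a cell transcribes.

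Signal was read in 17641 windows, of which 99.8% were 401 bp wide, so levels of different genes rarely differ through window width. The levels printed are before chromosome centring, and windows lie at differing distances from gene starts. The deposited values are read numbers multiplied by 1 factor per library and are called scaled reads here. The libraries held 4530066 and 4800860 reads in these windows for the knockdown, 9924487 and 7198683 for betaTC3, and 5983486 and 9224783 for the empty vector. A count of 3 reads, used as the limit that a count of 0 allows, equals at most 4.19 scaled reads in any library, and this limit covers counting error only. Most windows, 11346 of 17641 (64.3%), lay within 1 kb of a gene start. Of 84 ribosomal protein genes, active in every cell, 61 had a window within 1 kb of their start (72.6%, exact 95% binomial interval 61.8 to 81.8), against 2 of 1110 olfactory receptor genes (0.18%, 0.0218 to 0.649) and 9390 of 21900 protein-coding genes (42.9%). The signal also stood at Ins1 and Pdx1 in the beta cell line and at Gcg in the alpha cell line. The positions thus differ from those known for the silent mark that the label names, and values are given as signal in libraries labelled H3K9me3, not as silencing. In chromatin from many cells, fewer cells carrying a signal and less signal per cell cannot be told apart.

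Promoters of 4 hormone and transcription factor genes are shown first, 2 high in betaTC3 and 2 high in alphaTC1, because they carry the identity of each line. Each runs from 250 bases before to 50 bases after the gene start, from RefSeq on GRCm38.p6, and capitals mark matches on either strand to the E-box letters CANNTG or to the TATA box letters TATAAA. The E-box letters matched in 72.3% and the TATA letters in 13.6% of 32851 promoters of the same length, so a match describes the letters and is not evidence of a site. The Ins1 promoter lies at chr19:52264047-52264346 on the plus strand, Pdx1 at chr5:147269847-147270146 on the plus strand, Gcg at chr2:62483604-62483903 on the minus strand and Pou3f4 at chrX:110814129-110814428 on the plus strand.
Ins1: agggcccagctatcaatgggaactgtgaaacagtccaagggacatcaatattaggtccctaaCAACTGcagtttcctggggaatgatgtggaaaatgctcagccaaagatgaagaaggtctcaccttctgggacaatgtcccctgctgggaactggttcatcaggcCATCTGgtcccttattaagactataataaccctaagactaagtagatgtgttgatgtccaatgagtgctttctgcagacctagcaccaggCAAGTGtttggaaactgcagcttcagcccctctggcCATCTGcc
Pdx1: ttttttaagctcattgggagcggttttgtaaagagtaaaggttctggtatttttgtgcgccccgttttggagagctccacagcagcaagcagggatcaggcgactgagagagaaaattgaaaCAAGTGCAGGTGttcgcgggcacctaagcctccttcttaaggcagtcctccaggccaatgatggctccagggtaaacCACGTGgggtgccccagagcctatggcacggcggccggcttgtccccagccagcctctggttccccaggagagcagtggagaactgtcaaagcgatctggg
Gcg: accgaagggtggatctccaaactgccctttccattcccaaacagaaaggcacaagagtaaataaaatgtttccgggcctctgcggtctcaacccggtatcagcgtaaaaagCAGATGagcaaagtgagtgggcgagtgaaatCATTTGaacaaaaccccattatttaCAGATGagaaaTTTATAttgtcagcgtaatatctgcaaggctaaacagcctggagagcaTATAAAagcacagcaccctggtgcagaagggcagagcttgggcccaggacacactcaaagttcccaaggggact
Pou3f4: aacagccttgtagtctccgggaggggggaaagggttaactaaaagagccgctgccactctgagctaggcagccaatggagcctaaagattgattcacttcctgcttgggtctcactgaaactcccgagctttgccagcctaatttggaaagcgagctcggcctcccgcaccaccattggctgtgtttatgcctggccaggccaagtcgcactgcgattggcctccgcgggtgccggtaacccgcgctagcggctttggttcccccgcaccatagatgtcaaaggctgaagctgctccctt
Called peaks covered all 300 bases of the Pdx1 promoter in both betaTC3 libraries and 0 bases in the 4 alphaTC1 libraries. The Pou3f4 promoter was the mirror image: peaks covered all 300 bases in both knockdown libraries, 213 and 157 bases in the empty-vector libraries and 0 in betaTC3. Over the Gcg promoter, peaks covered 129 and 280 bases in the knockdown, 46 and 267 with the empty vector and 0 in betaTC3. At Ins1 the betaTC3 peaks lay mainly inside the gene: 1 library's peak covered 198 promoter bases and the other's began past the promoter, at position 52264370. The CG dinucleotide occurred 0 times in the Ins1 promoter, 7 times in Gcg, 11 times in Pdx1 and 15 times in Pou3f4, beside a median of 7 over all promoters. No TAATTA (5.29% of promoters) or TGACGTCA (1.79%) lay in these 4 windows.

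The lines differed over much of the genome. With limma on log2(scaled reads + 1), each library centred chromosome by chromosome, 11249 of 17641 windows (63.8%) were called between betaTC3 and the knockdown at an adjusted p under 0.05. Signal was higher in betaTC3 at 5683 windows (32.2%) and lower at 5566 (31.6%). Most differences were modest, with 62.5% of windows within 1 log2 unit of each other, but 2010 windows were higher and 1350 lower by more than 3 log2 units. Some windows were present in one line and bare in the other: 538 held at least 100 scaled reads in both betaTC3 libraries and at most 3 reads in each knockdown library, and 92 showed the reverse. Within 2 kb of a gene start, the background for the gene lists below, 32.4% of 11920 windows were higher and 26.7% lower in betaTC3, with a median difference of 0.07.

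After chromosome centring, the knockdown itself moved little by comparison. Centring removes any shift shared by a whole library or chromosome, so this holds for relative signal only. Between knockdown and empty-vector alphaTC1, limma called 0 of 17641 windows (0.0%), with 2331 windows (13.2%) under an unadjusted p of 0.05 and a smallest adjusted p of 0.143. EdgeR with chromosome centring also called 0, with 2187 under an unadjusted 0.05. With library-wide scaling in place of chromosome centring, edgeR called 0, with 2194, and DESeq2 called 10, with 1078. Without centring limma also called 0, with 6169 under an unadjusted 0.05. On the deposited scale the median within 1 kb of a start was 424 in the knockdown and 569 with the empty vector. In the centred limma fit betaTC3 against the empty vector gave 10248 called windows (58.1%). Of all windows 28.9% were higher and 29.1% lower, or 26.9% and 25.6% within 2 kb of a start. These comparisons share libraries with the main one, so their values are set beside each gene and not counted as agreement. The shRNA acts on Smndc1 RNA, so the chromatin signal at the Smndc1 start checks nothing about how deep the knockdown went.

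The beta cell genes remained apart. Of 31 genes on the beta cell lists, 25 had a window and 22 of these lay within 2 kb of the gene start. Of those 22, 20 were higher in betaTC3 than in the knockdown, 0 were lower and 2, Nkx6-1 and Slc30a8, were not called, beside the 32.4% and 26.7% given above. Their median difference was 6.83 log2 units, against 0.07 for all windows within 2 kb of a start. At 14 of the 22 genes each knockdown library held at most 3 reads. Against the empty vector, 21 of the 22 were higher in betaTC3, and between knockdown and empty vector 0 were called.

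**Figure D1:**
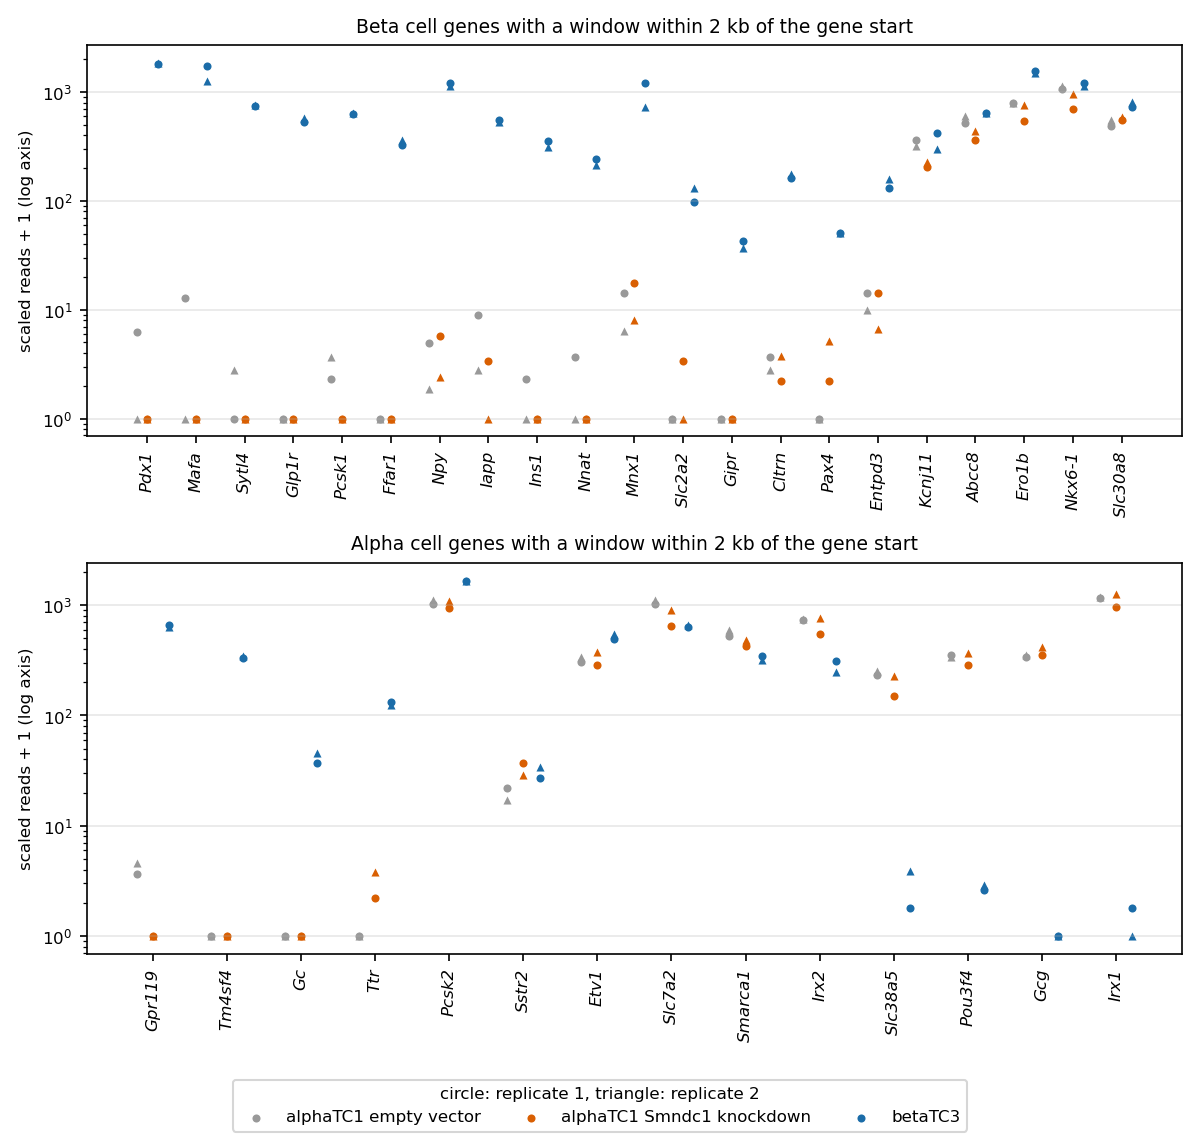
Scaled reads plus 1 on a log axis for 21 of the 22 beta cell genes (upper panel) and 14 of the 15 alpha cell genes (lower panel) with a window within 2 kb of the start; grey is alphaTC1 with empty vector, orange alphaTC1 with Smndc1 knockdown and blue betaTC3, with circles for replicate 1 and triangles for replicate 2. In the upper panel the orange and grey points lie together near the bottom from Pdx1 to Pax4. BetaTC3 lies above them there, though low itself at Gipr and Pax4. In the lower panel Gcg, Irx1, Pou3f4 and Slc38a5 show the opposite order.

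Hormone and granule genes came first among the beta cell genes. At Ins1 (chr19:52264569-52264969), an insulin gene, the betaTC3 libraries held 354 and 314 scaled reads, both knockdown libraries 0, and the empty-vector libraries 1.32 and 0. The betaTC3 level was at least 85.9-fold higher than the knockdown, taking 3 reads per library as the limit, and the modelled difference was 7.87 log2 units (SE 0.48, adjusted p 3.39e-05). The other insulin gene, Ins2, had no window, but both betaTC3 peak lists held a peak there, in replicate 1 at chr7:142677669-142679838, and none of the 4 alphaTC1 lists did. Pcsk1, the prohormone convertase that starts the cutting of proinsulin, held 628 and 640 scaled reads in betaTC3 and 0 in both knockdown libraries, with 1.32 and 2.66 for the empty vector. Here too no alphaTC1 library came near a betaTC3 library, and the bound was at least 163-fold.

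Iapp, the amylin hormone packed with insulin, held 556 and 531 scaled reads in betaTC3 and 2.39 and 0 in the knockdown, a ratio of 423 with an exact 95% counting interval of 117 to 3495. Npy, neuropeptide Y, held 1213 and 1137 against 4.78 and 1.40, a difference of 8.38 (SE 0.64, adjusted p 7.57e-05). Sytl4, whose product granuphilin docks insulin granules, held 745 and 768 against 0 and 0. Neuronatin (Nnat) had 240 and 211 against 0 and 0. At all 4 genes the empty-vector libraries were low as well, from 0 to 7.94 scaled reads. Ero1b, an oxidase that helps proinsulin fold, had signal in both lines: 1564 and 1506 in betaTC3, 541 and 762 in the knockdown, 794 and 792 with the empty vector. It was higher in betaTC3 by 0.91 (SE 0.09, adjusted p 0.000249).

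Slc30a8, the zinc transporter of insulin granules, did not separate betaTC3 from the knockdown. It held 724 and 811 scaled reads in betaTC3, 549 and 591 in the knockdown and 483 and 548 with the empty vector. The groups do not overlap on the deposited scale, but windows of its chromosome 15 were higher in betaTC3 by a median of 0.38 before centring, and the centred difference was 0.06 (95% interval -0.21 to 0.34, adjusted p 0.640). Without centring Slc30a8 was called higher than in the knockdown. Against the empty vector it was called higher in betaTC3 with centring, by 0.59 (95% interval 0.32 to 0.87, adjusted p 0.00452). Between knockdown and empty vector it differed by 0.53 (adjusted p 0.207).

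Among the beta cell transcription factors, Pdx1 gave the largest difference. Its window (chr5:147270320-147270720) held 1829 and 1840 scaled reads in betaTC3, 0 in both knockdown libraries and 5.30 and 0 with the empty vector. That is at least 472-fold, and 10.49 log2 units (SE 0.81, adjusted p 7.73e-05). The betaTC3 peaks over Pdx1 spanned 9480 and 9913 bp, and no alphaTC1 library had a peak at its start. Mafa, which drives insulin transcription in mature beta cells, held 1726 and 1269 in betaTC3 and 0 in both knockdown libraries in a window 1245 bp from its start, with 11.9 and 0 for the empty vector. At the start itself the knockdown lists held narrow peaks of 284 and 267 bp and the betaTC3 lists peaks of 3526 and 3796 bp, so Mafa was bare in the alpha cell line only away from its start.

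Mnx1, which suppresses non-beta programs, held 1207 and 733 scaled reads in betaTC3 against 16.7 and 6.99 in the knockdown and 13.2 and 5.33 with the empty vector, a difference of 5.95 (SE 0.59, adjusted p 0.000218). Pax4, a repressor of the alpha program during development, was low in both lines: 49.5 and 49.5 in betaTC3, 1.19 and 4.19 in the knockdown and 0 in both empty-vector libraries. It was higher in betaTC3 by 3.98 (SE 0.43, adjusted p 0.000323), and its difference between knockdown and empty vector was 2.11 (adjusted p 0.207), on 1 and 3 reads. Nkx6-1, needed for beta cell identity, was the transcription factor that did not separate the lines. It held 1223 and 1135 in betaTC3, 698 and 952 in the knockdown and 1068 and 1129 with the empty vector. Its centred difference from the knockdown was 0.17 (95% interval -0.03 to 0.38, adjusted p 0.109), and it was called higher without centring, with library-wide scaling and when knockdown replicate 2 was left out. The peaks over Nkx6-1 were wider in the knockdown, at 9048 and 8503 bp, than in betaTC3, at 4983 and 6521 bp.

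All 9 glucose-sensing, channel and receptor genes with a window near the start were higher in betaTC3, beside 32.4% of all windows within 2 kb. The incretin receptor Glp1r (chr17:30901762-30902162) held 535 and 574 scaled reads in betaTC3 and 0 in each of the 4 alphaTC1 libraries, at least 143-fold. The other incretin receptor, Gipr, held 41.5 and 36.2 against 0 in all 4, at least 9.99-fold. Ffar1, a receptor for long-chain fatty acids, held 324 and 359 against 0 in all 4, at least 87.8-fold. In these windows, the nearest to each gene start, no alphaTC1 library held a read, with or without the knockdown. Glp1r had 3 assigned windows, and only the nearest is given here.

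Slc2a2, the glucose transporter of the mouse beta cell, held 97.4 and 129 scaled reads in betaTC3 and 2.39 and 0 in the knockdown, a ratio of 87.0 (23.8 to 722). Collectrin (Cltrn), a membrane protein of beta cells, had 163 and 175 against 1.19 and 2.80. Entpd3, a surface enzyme that cuts nucleotides, held 130 and 157 against 13.1 and 5.59. In each case every betaTC3 library lay far above every alphaTC1 library. The 2 subunits of the ATP-sensitive potassium channel differed far less: Abcc8, the sulfonylurea receptor, held 648 and 645 against 362 and 440, and Kcnj11, the pore, held 417 and 296 against 202 and 229. The centred differences were 0.91 (SE 0.09, adjusted p 0.000181) for Abcc8 and 0.92 (SE 0.17, adjusted p 0.00314) for Kcnj11. With the empty vector Kcnj11 held 360 and 321, inside the range of the betaTC3 libraries on the deposited scale. After centring it was called higher in betaTC3 than with the empty vector, by 0.64 (SE 0.17, adjusted p 0.0156). Windows of its chromosome 7 had a median difference of -0.22 between betaTC3 and the knockdown before centring.

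Of the beta cell genes, 3 had their nearest window farther than 2 kb from the start and are outside these counts. Near G6pc2, an islet glucose-6-phosphatase, a window 9579 bp away was higher in betaTC3, at 325 and 425 against 15.5 and 6.99. Near Prlr, the prolactin receptor, a window 46862 bp away was lower, at 9.58 and 6.66 against 147 and 176. Vgf, a granule peptide precursor, had a window 3300 bp away that was also lower, at 19.2 and 19.0 against 54.9 and 39.1.

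Alpha cell genes split. Of 17 on the lists, 16 had a window and 15 of these lay within 2 kb of the start. Of the 15, 8 were lower in betaTC3 than in the knockdown, 5 were higher and 2, Etv1 and Sstr2, were not called, beside the 26.7% lower and 32.4% higher over all such windows. The median difference was -0.56. Against the empty vector 8 were lower and 6 higher, and between knockdown and empty vector 0 were called. At an unadjusted p under 0.05, 6 of the 15 (40.0%) differed between knockdown and empty vector, 5 of them higher in the knockdown (Gcg, Pcsk2, Ttr, Etv1 and Sstr2) and 1 lower (Gpr119), against 13.2% of all windows and 3 of the 22 beta cell genes. The smallest adjusted p among them was 0.207. Ttr rested on 3 reads in the knockdown against 0 with the empty vector, Gpr119 on 0 against 6 and Sstr2 on 50 against 34. Gcg, Pcsk2 and Etv1 each held at least 284 scaled reads in every alphaTC1 library.

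Glucagon stayed with the alpha cell line. The Gcg window (chr2:62481721-62482121) held 352 and 421 scaled reads in the knockdown, 340 and 352 with the empty vector and 0 in both betaTC3 libraries, at least 147-fold higher in the knockdown. The modelled difference was -8.71 (SE 0.21, adjusted p 4.37e-06). Peaks over Gcg spanned 8582 and 6518 bp in the knockdown and were missing from both betaTC3 lists. Other genes of the alpha cell secretory list went the opposite way. Ttr, a carrier of thyroid hormone and retinol that alpha cells secrete, held 130 and 123 in betaTC3, 1.19 and 2.80 in the knockdown and 0 with the empty vector, a ratio of 65.6 (22.2 to 320). Gc, the vitamin D binding protein, held 35.9 and 44.7 in betaTC3 and 0 in all 4 alphaTC1 libraries. Pcsk2, the convertase that releases glucagon and also completes insulin processing, was high everywhere: 1658 and 1666 in betaTC3, 934 and 1096 in the knockdown and 1029 and 1119 with the empty vector. It was higher in betaTC3 by 0.60 (SE 0.08, adjusted p 0.000733).

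The alpha cell transcription factors gave the clearest alpha side of the comparison: 4 of 5 with a window near the start were lower in betaTC3 and 0 higher. Over all windows within 2 kb of a start 26.7% were lower and 32.4% higher. Irx1, an Iroquois homeobox factor, held 970 and 1270 scaled reads in the knockdown (chr13:71962784-71963184), 1152 and 1190 with the empty vector and 0.799 and 0 in betaTC3. A single betaTC3 read stood against more than 1000 scaled reads on average, a ratio of 2553 with a counting interval from 458 upward, and a difference of -10.04 (SE 0.25, adjusted p 4.37e-06). Pou3f4, a POU homeobox factor of alpha cells, held 284 and 366 in the knockdown, 354 and 341 with the empty vector and 1.60 and 1.90 in betaTC3, a difference of -7.28 (SE 0.20, adjusted p 4.62e-06). At both genes the 4 alphaTC1 libraries stood together and betaTC3 was almost bare.

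Irx2, another Iroquois factor, kept signal in both lines. It held 546 and 759 in the knockdown and 311 and 246 in betaTC3, a difference of -1.57 (SE 0.11, adjusted p 6.23e-05). Its peaks spanned 18623 and 18576 bp in the knockdown but 2274 and 2534 bp in betaTC3. Etv1, an ETS factor, held 284 and 376 in the knockdown and 490 and 549 in betaTC3. It lies on chromosome 12, whose windows were higher in betaTC3 by a median of 0.82 before centring, so its centred difference was -0.13 (95% interval -0.44 to 0.17, adjusted p 0.374). Without centring, or with a single factor per library, Etv1 was called higher in betaTC3.

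Receptor, transporter and surface genes of alpha cells were divided, with 3 lower, 2 higher and Sstr2 not called. Over all windows within 2 kb of a start 26.7% were lower and 32.4% higher. Slc38a5, an amino acid transporter, held 148 and 225 scaled reads in the knockdown, 232 and 250 with the empty vector and 0.799 and 2.86 in betaTC3, a difference of -6.53 (SE 0.40, adjusted p 3.38e-05). Slc7a2, a transporter of cationic amino acids, was lower by less, with a difference of -0.56, and so was Smarca1, a chromatin remodelling ATPase, at -0.86. On the deposited scale Slc7a2 overlapped between the groups, at 647 and 896 in the knockdown and 631 and 659 in betaTC3, and its call was lost without centring. Both kept at least 316 scaled reads in each of the 6 libraries. In the opposite direction, Gpr119, a lipid receptor also known from beta cells, held 666 and 634 in betaTC3 and 0 in both knockdown libraries, with 2.65 and 3.55 for the empty vector. Tm4sf4, a membrane protein, held 331 and 345 in betaTC3 and 0 in all 4 alphaTC1 libraries. At these genes the alpha cell line, with or without the knockdown, lacked signal that the beta cell line carried. Sstr2, a somatostatin receptor, was low throughout: 26.4 and 33.3 in betaTC3, 35.8 and 28.0 in the knockdown and 21.2 and 16.0 with the empty vector. BetaTC3 and knockdown overlapped there, with a difference of 0.26 (95% interval -0.58 to 1.10, adjusted p 0.530).

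**Figure D2:**
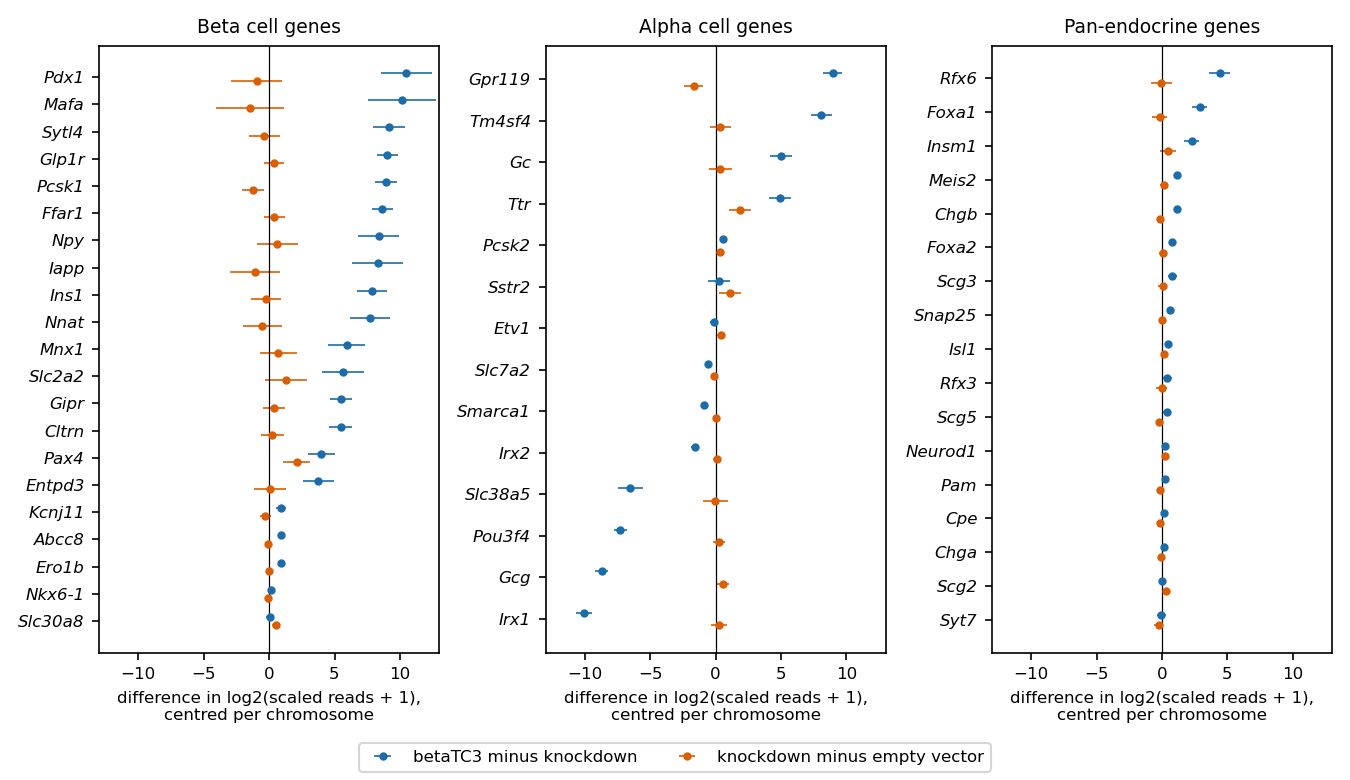
Difference in log2(scaled reads + 1), centred per chromosome, for 21 beta cell, 14 alpha cell and 17 pan-endocrine genes with a window within 2 kb of the start; blue points are betaTC3 minus knockdown and orange points knockdown minus empty vector, both with 95% intervals from limma. The blue points of the beta cell genes run from 0.06 at Slc30a8 to 10.49 at Pdx1, those of the alpha cell genes from -10.04 at Irx1 to 8.94 at Gpr119, and the orange points, which share the knockdown libraries, lie within 2.11 of 0.

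Genes that all endocrine cells use lay closer than the beta and alpha cell lists, about as far apart as other windows near a start. Of 24 pan-endocrine genes, 19 had a window and 17 of these lay within 2 kb of the start. Of the 17, 11 were higher in betaTC3, 0 lower and 6 not called, beside 32.4% higher and 26.7% lower over all such windows. Their median difference was 0.45, against 0.07 for all such windows. The median absolute difference was 0.45, against 0.44. The largest were transcription factors. Rfx6, needed to form endocrine cells, held 737 and 803 scaled reads in betaTC3, 19.1 and 36.3 in the knockdown and 47.7 and 27.5 with the empty vector, a difference of 4.42 (SE 0.33, adjusted p 6.97e-05). Foxa1, a pioneer factor, held 492 and 342 against 33.4 and 29.4, a difference of 2.87 (SE 0.24, adjusted p 0.00011). Insm1, a zinc finger factor of endocrine development, held 2100 and 1245 against 234 and 414, a difference of 2.26 (SE 0.25, adjusted p 0.000344). At each of the 3 genes every betaTC3 library lay above every alphaTC1 library. Meis2 (1.14), Foxa2 (0.80), Isl1 (0.45) and Neurod1 (0.25) were higher by less, and Rfx3, at 0.37, was not called (adjusted p 0.0938).

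The secretory machinery that both lines share differed least. Chgb, a granin, held 688 and 636 scaled reads in betaTC3 and 242 and 321 in the knockdown, a difference of 1.13 (SE 0.09, adjusted p 9.11e-05). Scg3 (0.79), the synaptic protein gene Snap25 (0.59) and the convertase chaperone gene Scg5 (0.37) were also higher. The other 5 of the 9 were not called: the granins Chga and Scg2, carboxypeptidase E (Cpe), the amidating enzyme gene Pam and the calcium sensor gene Syt7. Their centred differences ran from -0.05 at Syt7 to 0.21 at Pam. Scg2 was nearest to even, at 571 and 574 in betaTC3 and 538 and 668 in the knockdown, a difference of -0.02 (95% interval -0.23 to 0.19). Chga, a general granule marker, held 1587 and 1606 in betaTC3 and 719 and 974 in the knockdown, but lies on chromosome 12, and its centred difference was 0.13 (95% interval -0.09 to 0.35, adjusted p 0.242). Neurod1 and Scg5 were not called with library-wide scaling, nor when betaTC3 replicate 2, knockdown replicate 2 or either empty-vector library was left out. Scg2 was called lower with library-wide median centring or edgeR's TMM scaling. Rfx3, Chga and Cpe were called higher without centring, with library-wide median centring, with edgeR's TMM scaling and with DESeq2. Rfx3 and Pam were also called higher when chromosomes were centred on the medians of their levels and without betaTC3 replicate 2, Pam without knockdown replicate 1, and Syt7 was called lower without betaTC3 replicate 1.

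Genes of other pancreatic lineages were checked beside these, since a line can carry signal that does not belong to its named cell type. The delta cell hormone Sst held 107 and 93.3 scaled reads in betaTC3, 1.19 and 1.40 in the knockdown and 2.65 and 0 with the empty vector, a ratio of 78.2 (21.4 to 650). The other gene of the delta, PP and epsilon list with a window near its start, the retinol carrier gene Rbp4, was lower in betaTC3, at 172 and 150 against 177 and 222, a difference of -0.81 (adjusted p 0.00144) that was not called without centring or with DESeq2. Of 14 acinar and duct genes, 4 had a window near the start. Of the 4, 3 were lower and 1 higher in betaTC3, beside 26.7% and 32.4% of all windows within 2 kb. Sox9, a duct and progenitor factor, held 465 and 598 in the knockdown, 546 and 601 with the empty vector and 3.99 and 4.76 in betaTC3, a difference of -6.27 (SE 0.17, adjusted p 4.71e-06). Onecut1, a factor of early pancreas and duct, held 81.2 and 101 in the knockdown against 0.799 and 2.86. Cela1, a digestive elastase gene, held 83.6 and 55.9 against 8.78 and 4.76, and Bhlha15, an acinar factor, was higher in betaTC3 at 99.0 and 79.9 against 4.78 and 14.0. In every case the empty-vector libraries sided with the knockdown. Of 9 endothelial, stromal and immune genes, 8 had no window, and Col1a1, a collagen gene, was lower in betaTC3, with a difference of -1.34 (adjusted p 0.0185), a call lost without either knockdown library.

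The targeted gene and the enzymes of the labelled mark formed the last list. Smndc1 (chr19:53389863-53390263) held 1689 and 1653 scaled reads in betaTC3, 812 and 1126 in the knockdown and 1370 and 1378 with the empty vector. It was higher in betaTC3 than in the knockdown by 0.29 (SE 0.08, adjusted p 0.0221), and the centred difference between knockdown and empty vector was -0.13 (adjusted p 0.568). The first of these calls was lost when betaTC3 replicate 2, knockdown replicate 1 or either empty-vector library was left out. Of the 13 genes of this list within 2 kb of a window, 5 were higher in betaTC3, 1 lower and 7 not called. Over all such windows 32.4% were higher and 26.7% lower. The median difference of the 13 was 0.19. Tasor, a HUSH complex subunit, was higher by 0.74 (SE 0.15, adjusted p 0.00576), and the methyltransferase genes Suv39h2 (0.50), Ehmt2 (0.53) and Ehmt1 (0.40) were higher by less, each losing its call without either knockdown library. Morc2a, an ATPase that works with HUSH, was lower, with a difference of -0.35 (adjusted p 0.0209), a call lost without replicate 2 of any of the 3 groups. Atrx (0.19) and Daxx (0.00), which together deposit histone H3.3 at silent chromatin, were not called. Each of the 13 genes held at least 127 scaled reads in every library, so none was bare in either line.

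Called peaks, made per library against the input of its group, gave a second reading of the same reads, and covered genes with no window. Of the 31 beta cell genes, 16 had a peak within 1 kb of the start in both betaTC3 libraries and in neither knockdown library, 8 had one in all 4 libraries, 0 in the knockdown alone, 6 in none, and Mnx1 in both betaTC3 libraries and 1 knockdown library. The 8 shared genes were Slc30a8, Ero1b, Mafa, Nkx6-1, Abcc8, Kcnj11, and, without a window, Esrrg and Gjd2. Ovol2, a repressor of mesenchymal genes, had no window and joined the genes with a peak in betaTC3 alone. Of the 17 alpha cell genes, 4 had a peak in the knockdown alone (Gcg, Irx1, Pou3f4 and Slc38a5), 4 in betaTC3 alone (Ttr, Gc, Tm4sf4 and Gpr119) and 7 in all 4 libraries, while Dpp4 had one in a single betaTC3 library. Among the 24 pan-endocrine genes 19 had a peak in all 4 libraries, and 2 had one in betaTC3 alone, among them Hnf4a, a nuclear receptor. Over all 123 list genes, 53 had a peak in all 4 libraries, 24 in betaTC3 alone, 8 in the knockdown alone and 35 in none. The share of these patterns over all genes was not computed, so the counts describe the lists only. Nkx2-2, which had no window, showed a difference in width: its peaks spanned 15177 and 14905 bp in the knockdown and 1423 and 1644 bp in betaTC3. Over the whole lists, 96.5% of the peaks of betaTC3 replicate 1 met a peak of betaTC3 replicate 2 by at least 1 bp, and 81.9% met one of knockdown replicate 1; from the other side, 92.5% of the peaks of knockdown replicate 1 met one of knockdown replicate 2 and 76.9% one of betaTC3 replicate 1.

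**Figure D3:**
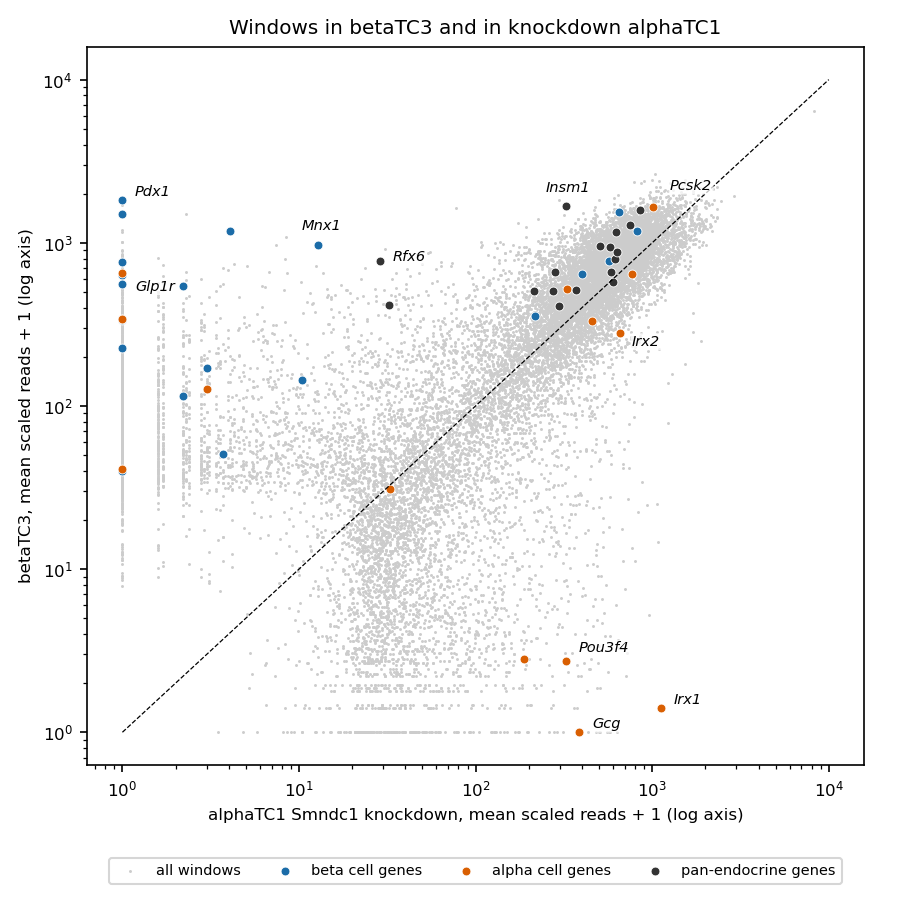
Mean scaled reads plus 1 of each of 17641 windows in the Smndc1 knockdown (x axis) and in betaTC3 (y axis), both on log axes and before chromosome centring; grey points are all windows, coloured points the 21 beta cell, 14 alpha cell and 17 pan-endocrine genes plotted, and the dashed line marks equal values. Beta cell genes such as Pdx1 and Glp1r lie on the left edge at 0 knockdown reads, Irx1, Gcg and Pou3f4 lie at the bottom right, and most pan-endocrine genes lie with the bulk along the line.

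Outside the lists, the windows within 1 kb of a gene start with the smallest adjusted p were nearly all bare in one line. The 10 named as higher in betaTC3 were Gna13, Kif12, Lhx1, Abca5, Kcnip1, Galr1, Nuak2, Sntg1, Rprml and the antisense gene Gm49544, each at 0 in both knockdown libraries. Lhx1, a LIM homeobox factor, held 830 and 835 scaled reads in betaTC3 and 0 in all 4 alphaTC1 libraries, at least 214-fold. Galr1, a receptor for the peptide galanin, held 833 and 935 against 0 in the knockdown, at least 227-fold. Kif12, a kinesin gene, held 854 and 856 against 0, with 6.62 and 7.99 for the empty vector. Gna13, a G protein subunit at 1170 in both betaTC3 libraries, and Abca5 belong to 1 stretch: 17 neighbouring windows on chromosome 11, from 108921161 to 110479924, held at most 3 reads in every alphaTC1 library, while the windows on either side held 335 and 531 scaled reads in the knockdown. Whether alphaTC1 carries that stretch of DNA was not tested.

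The 10 named as lower in betaTC3 were Gm42838, D16Ertd472e, CT030740.1, Mark1, Fam189a1, Fmnl2, Ppp1r9a, Zfp641, Lpl and Pde3a. The first 5 held 0 in both betaTC3 libraries. Mark1, a kinase of microtubule-associated proteins, held 535 and 573 scaled reads in the knockdown and 793 and 721 with the empty vector, at least 211-fold higher in the knockdown than in betaTC3. Lpl, lipoprotein lipase, held 629 and 716 against 16.0 and 17.1, and Pde3a, a cyclic nucleotide phosphodiesterase, 843 and 1015 against 22.4 and 24.7. All 10 were high in the empty-vector libraries too, from 588 to 1196. Gm42838, CT030740.1 and Gm49544 are antisense genes, and a window at their start cannot be assigned to one strand.

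Some genes with a window within 1 kb, called between betaTC3 and the knockdown, had a knockdown mean between those of the other groups. These means were taken on the deposited scale, before centring. Within 1 kb the median was 424 scaled reads in the knockdown, 569 with the empty vector and 517 in betaTC3. A mean in between is therefore not read as movement towards betaTC3. Of these genes, the 5 with the smallest p between knockdown and empty vector were Sh3bp2, Psmb8, Plek2, Rhbdl3 and Rims3. Limma called none of the 5 between knockdown and empty vector (adjusted p 0.143 each). Psmb8, an immunoproteasome subunit, held 74.1 and 84.3 scaled reads with the empty vector, 122 and 148 in the knockdown and 779 and 796 in betaTC3. Rhbdl3, a rhomboid-family gene, held 72.8 and 80.8, then 123 and 142, then 354 and 346. DESeq2 called both of these between knockdown and empty vector. The others rested on few reads: Rims3, an active zone gene, held 0 and 0 with the empty vector, 4.78 and 5.59 in the knockdown and 691 and 402 in betaTC3. At these 5 genes, which the rule drew from windows already called between betaTC3 and the knockdown, that difference was 1.75 to 6.08 log2 units.

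The lines stood further apart away from gene starts. Among 11346 windows within 1 kb of a start the median absolute difference was 0.43, with 32.2% higher and 26.6% lower in betaTC3. Among 2808 windows at 1 to 10 kb it was 1.19, with 32.3% higher and 37.3% lower. Among 3487 windows beyond 10 kb it was 1.86, with 32.0% higher and 43.1% lower. The levels also differed: the median was 424 scaled reads in the knockdown and 517 in betaTC3 within 1 kb, and 35.2 and 39.7 beyond 10 kb, so the far windows rest on fewer reads. At gene starts the number of CG dinucleotides in the promoter also varied with the call, with a median of 18 at 593 windows higher by over 3, 24 at 2066 higher by up to 3, 22 at 3470 not called, 20 at 1888 lower by up to 3 and 14 at 268 lower by over 3.

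**Figure D4:**
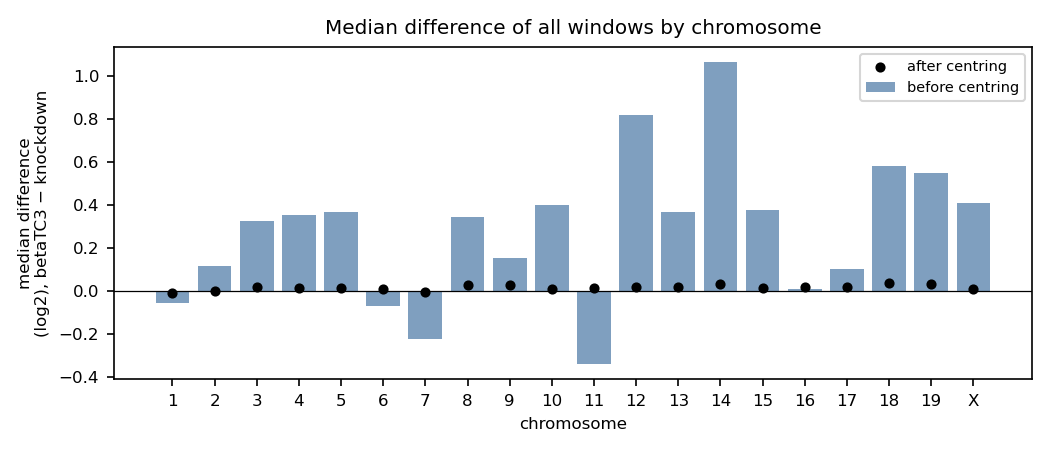
Median difference in log2(scaled reads + 1), betaTC3 minus knockdown, over all windows of each chromosome, before centring (bars) and after centring (black points). Before centring chromosome 14 (1.07) and chromosome 12 (0.82) are highest and chromosome 11 (-0.34) lowest, and after centring every chromosome lies within 0.04 of 0.

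The chromosomes themselves were offset between betaTC3 and the knockdown. Before centring the median difference was 1.07 on chromosome 14, 0.82 on chromosome 12, -0.22 on chromosome 7 and -0.34 on chromosome 11. These offsets were taken between betaTC3 and the knockdown only, and their source was not tested. Without centring, Slc30a8, Nkx6-1, Rfx3, Chga, Cpe, Atrx and Suv39h1 were called. Slc7a2, Neurog3, Rbp4, Ehmt1, Ehmt2 and Trim28 were no longer called, and Etv1 and Mphosph8 were called higher in betaTC3. The Neurog3 window lay 22029 bp from the gene start, and Trim28 had no called peak within 2 kb of its start. Without centring 60.3% of called windows were higher in betaTC3, against 50.5% with it. The genes that were bare in one line, from Pdx1 and Glp1r to Gcg and Irx1, kept their call in every alternative fit that was run.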

How the data were processed

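Chromatin was immunoprecipitated with an antibody labelled H3K9me3 and sequenced as 50 bp single reads. Of the upstream tools, MACS2 2.2.7.1, Bowtie2 2.4.1 and Picard 2.19.2 are listed in the submitters' processing notes with mm10 (GRCm38) as the build. The sources used here do not state how the window values were scaled or whether input was subtracted. In the window table the authors deposited signal values, each a whole number of reads times 1 factor per library (100% of values whole within 0.001). The deposited peak lists, 1 per library, hold MACS2 scores, fold enrichment ratios, and −log10 p and q values, per the column order of the files.

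From these, 17641 windows were kept, 1 row each (14 were assigned to 2 genes). Log2(scaled reads + 1) was centred per chromosome on the median difference from the mean of the 6 libraries, and chromosomes with fewer than 20 windows took the median of the whole library. Group means were fitted with limma 3.58.1 (R 4.3.3) over 6 libraries with an intensity trend and Benjamini-Hochberg adjustment over all windows, and called at 0.05. The script was tested on simulated data. EdgeR 4.0.16 and DESeq2 1.42.0 were run on the recovered reads as alternatives. Ratios against 0 use 3 reads per library, and ratios against 1 to 3 reads use pooled reads with an exact interval. A list gene takes its nearest assigned window, and 1 gene (Ero1b) was matched by an older symbol. Genes outside the lists were named by rule: the 10 per direction with the smallest adjusted p within 1 kb of a start, with a mean of at least 100 in the higher group and no overlap between the groups, and the 5 with the smallest p after knockdown among genes with an intermediate knockdown mean. Members, lists and rules were chosen with earlier results of these data known, so no list is independent support for its own direction. Peaks were matched to list genes within 1 kb of the start. Input libraries were used only through the authors' peak lists. Some list genes are counted but not reported singly here.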

Additional observations from a re-analysis of the deposited data

How the results depend on the processing

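The count of windows called between betaTC3 and the knockdown (11249) stayed within 1.5 times under all 19 alternatives, from 8606 to 12394, and each of the counts of beta cell genes higher (18 to 22) and alpha cell genes lower (7 to 9) did so under 21. The count between knockdown and empty vector, 0 with limma, was 253 (69 higher, 184 lower) with a pseudocount of 0.1 (Pcsk1, Pax4, Ttr and Gpr119 among the list genes), 49 (25 and 24) without the intensity trend, and 10 (3 and 7) with DESeq2. Leaving out 1 library gave 0 to 2, the 2 (both lower) without betaTC3 replicate 1; a group left with 1 library was assumed to vary like the others. With the nearest window at any distance, 2 beta cell genes (Vgf and Prlr) were lower. The count of pan-endocrine genes lower rose from 0 to 1 with that rule, with library median centring and with edgeR TMM, and ran from 0 to 1 when a library was left out (1 without betaTC3 replicate 1). Counting only peaks at or above the median q, the beta cell genes had 5 with a peak in all libraries, 10 in betaTC3 alone and 1 in the knockdown alone; the alpha cell genes 3 in all and 2 in betaTC3 alone; the pan-endocrine genes 12 in all and 1 in the knockdown alone; and all lists together 15 in betaTC3 alone. Reversed directions came only where chromosomes were not centred: Etv1 0.66 without centring, 0.45 with library median centring, 0.47 with edgeR TMM and 0.53 with DESeq2; Mphosph8 0.94, 0.72, 0.74 and 0.81 in the same order; and Cbx1 -0.51, -0.49 and -0.43 in the last 3. With the replicate block 10678 windows were called (5430 higher, 5248 lower), and Neurod1 and Scg5 were the list or named genes that lost their call. Samples share only a number: deviations of same-numbered libraries correlated at -0.01 between empty vector and knockdown, 0.08 between empty vector and betaTC3 and -0.17 between knockdown and betaTC3. Depth limits the bare windows, where 3 reads equal up to 4.19 scaled reads.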
